A study of Mus musculus and Acomys cahirinus with 16 samples.

Results

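Skin of the African spiny mouse (Acomys cahirinus) and skin of the laboratory mouse (Mus musculus), both treated with DMBA/TPA, were compared gene by gene. The comparison rests on 8 of the 16 samples of the series, 4 treated samples of each species. It covers the 18110 genes whose symbol was found once in the count table of each species, case ignored. The other 8 samples, 4 of untreated skin of each species, were used only to show how far the species differed without treatment. Polyadenylated RNA was sequenced in every sample. The labels name the species, the tissue, the treatment and a replicate number, and give no strain, sex, age, dose, schedule, sampling time or body site, and do not say whether the treated skin held tumours. The series title states the context, which is resistance of spiny mice to squamous tumours under this treatment.

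DMBA/TPA is the classical staged model of skin carcinogenesis. DMBA (dimethylbenzanthracene) is a polycyclic hydrocarbon that cytochrome enzymes of the skin convert into a form that damages DNA, and in laboratory mice the mutations it leaves are typically found in Hras. TPA is a phorbol ester that activates protein kinase C, and repeated doses cause inflammation and thickening of the epidermis and the outgrowth of mutated keratinocytes. Spiny mice are known for weak skin that tears easily and then heals with new hair follicles in place of a scar.

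A level is a gene's count divided by the gene's length in that species and scaled per 1000000 over the joined genes, with a TMM factor that aligns the bulk of genes across the 16 samples. The factor was 0.879 to 0.947 in treated samples and 0.918 to 1.49 in untreated ones. The levels of a sample add up to 1000000 divided by its factor. Levels are therefore per length and are not shares of a fixed total. Set between species they also carry differences of the deposited gene lengths, with which the species difference moves as described further on. A species difference is the log2 ratio of spiny mouse over mouse, tested with edgeR's quasi-likelihood test. A gene was called at a Benjamini-Hochberg adjusted p under 0.05. The same difference in untreated skin is given as the untreated difference, and the change of the difference is the treated minus the untreated difference, tested over all 16 samples. Differences and changes are on this log2 scale throughout, and levels of single samples are given in the order of replicates 1 to 4. The treated and untreated differences share no sample. The change shares samples with both of them.

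Most genes differed between the species in treated skin. Of 14717 genes tested, 12005 were called (81.6%), of which 6215 were higher in spiny mouse (42.2%) and 5790 lower (39.3%). The size of the difference was at least 1 on the log2 scale for 6151 called genes (41.8%). The samples of the 2 species did not overlap for 11229 genes (76.3%). The median log2 difference was 0.036, with quartiles of -0.74 and 0.88. In untreated skin 10045 of 14911 genes were called (67.4%), 33.8% higher and 33.6% lower in spiny mouse. With such a background a call alone says little of a gene, so the counts of each gene list that follow are to be read against the shares of 42.2% higher and 39.3% lower in treated skin.

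Most species differences of treated skin were also found in untreated skin. Of the 14475 genes tested both with and without treatment, 8388 were called in both, and 7560 of those had the same sign, 4013 higher and 3547 lower in spiny mouse. The same-sign genes made up 64.1% of the treated calls and 77.8% of the untreated calls. Another 828 genes were called in both with opposite signs, 425 of them higher in treated and lower in untreated spiny mouse skin and 403 the reverse. A further 3399 genes were called in treated skin only. The change itself was called for 6555 of 15282 genes (42.9%), 3617 upwards (23.7%) and 2938 downwards (19.2%), so that 55.2% of these calls were upwards. That share was 79.8% when libraries were scaled to their totals and 63.3% with upper-quartile scaling in place of TMM. The share of untreated calls that were higher in spiny mouse was 50.1% with TMM and 34.3% with totals, which moved the median untreated difference from -0.0010 to -0.32 and the median change from 0.075 to 0.42. The treated median moved by less than 0.1 under either scaling.

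**Figure D1:**
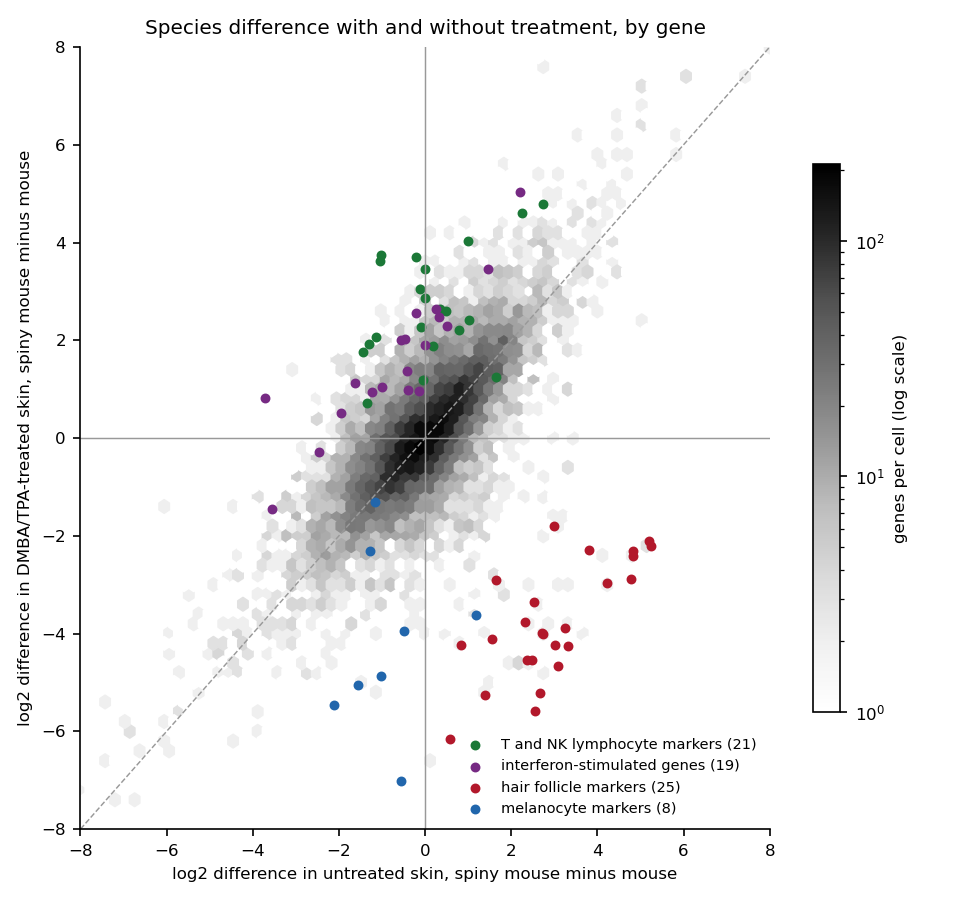
Species difference of each gene in treated skin (vertical axis, log2, spiny mouse minus mouse) against the same difference in untreated skin (horizontal axis). Grey cells count genes on a log scale, the dashed line marks equal differences, and 275 of the 14475 genes lie outside the axes. Most hair follicle and melanocyte markers lie below the dashed line, and most T and NK lymphocyte markers and interferon-stimulated genes lie above it.

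Treated mouse libraries held 20987750 to 30198281 counts and treated spiny mouse libraries 21829796 to 28498572, and 91.3% to 92.7% of mouse counts and 98.1% to 98.3% of spiny mouse counts fell in joined genes. Differences of annotation, gene length and read mapping between the 2 species cannot be told apart from expression in any single difference. In bulk skin, fewer cells of a type and less RNA per cell cannot be told apart either. Untreated mouse replicate 2 stood apart from its group, with 1.02% of its summed level in hair follicle markers against 0.00942% to 0.0143% in the other 3. It was also low in other lists, with summed levels in replicates 1 to 4 of 612, 232, 601 and 485 for interferon-stimulated genes. Those of MHC class I genes were 6375, 2311, 5075 and 4735, and those of cornified envelope genes 7410, 3329, 6484 and 7902. Cell division genes did not set it apart, at 452, 442, 415 and 473. All untreated differences and changes of the difference carry that library. Without it the change was called for 7827 genes in place of 6555, and all 123 changes called among the genes named here kept their call and sign, while 10 of them, 7 of which are hair keratins, grew by over 1.5 times.

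Krt14, a keratin of living epidermis, was the most abundant joined gene of both treated skins, which meets the label of skin. Krt71, Krt17 and Krtap8-1 ranked above Krt5 in mouse, and S100a8 ranked above Krt5 in spiny mouse. Krt14 and Krt5 encode the keratin pair of the basal layer. Krt14 was at 22682, 20268, 20597 and 15506 in mouse replicates 1 to 4 and at 13711, 13052, 13126 and 11027 in spiny mouse, lower in every spiny mouse sample. Its log2 difference was -0.63 (SE 0.12, adjusted p 0.000521). Krt5 went the other way, at 9471, 8858, 8469.9 and 8193 in mouse and 13292, 10875, 10552 and 9787 in spiny mouse, a difference of 0.35 (SE 0.099, adjusted p 0.00791). The pair of the suprabasal layers, Krt1 and Krt10, reached similar levels in both species. Krt1 was at 4259 ± 959 in mouse and 4014 ± 983 in spiny mouse (SD, n = 4 each), and Krt10 at 5952 ± 1122 in mouse and 5291 ± 1115 in spiny mouse. Neither difference was called (adjusted p 0.695 and 0.366), and the gene length of Krt10 differs between the tables, so that without division by length Krt10 was called higher in spiny mouse (log2 0.83, adjusted p 0.000959). Of the 15 epidermal keratins tested, 2 were called higher and 8 lower in spiny mouse, with a median of -0.28 in treated and -0.33 in untreated skin, where 6 were called higher and 4 lower. The change was called downwards for 6 of the 15 and upwards for none, with a median of -1.20.

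The keratins of stressed and thickened epidermis were all lower in treated spiny mouse skin. Krt6a, Krt16 and Krt17 are induced when keratinocytes are wounded or driven to divide. Krt17 (chromosome 11, 100147043 to 100151855 in GRCm39, as for all mouse gene positions given) was at 11546, 11116, 11937 and 11984 in mouse and at 3261, 3197, 4357 and 3376 in spiny mouse. The lowest mouse sample was over 2 times the highest spiny mouse sample. The log2 difference was -1.71 (SE 0.11, adjusted p 1.16e-07), against 0.19 in untreated skin, and the change of -1.91 was called (adjusted p 5.15e-05). Krt16 was at 9755, 8149, 8701 and 5883 in mouse and 4031, 3703, 4407 and 3122 in spiny mouse, a difference of -1.09 (SE 0.16, adjusted p 7.86e-05). For Krt6a the groups overlapped, at 4429 to 6354 in mouse and 3853 to 4625 in spiny mouse, with a difference of -0.41 (SE 0.11, adjusted p 0.00667). Neither Krt16 nor Krt6a was called when all 16 samples shared 1 estimate of the spread (adjusted p 0.124 and 0.171). The untreated differences of Krt16 and Krt6a were not called, and neither were their changes (adjusted p 0.169 and 0.839). Krt6b was not among the joined genes. Krt17 is also a keratin of the hair follicle, whose markers differed between the groups as described below, and the part of the follicle in these values was not tested.

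The cornified envelope, the cross-linked protein shell that forms the outer barrier, was mostly lower in treated spiny mouse skin. Of 27 genes tested 17 were called lower and 8 higher, with a median log2 difference of -0.66 in treated and 0.42 in untreated skin. The change was called downwards for 15 and upwards for 2. Rptn, which encodes the envelope protein repetin, was at 1174, 1226, 1234 and 713 in mouse and 236, 198, 138 and 189 in spiny mouse, a difference of -2.51 (SE 0.21, adjusted p 1.09e-06), while the untreated levels were 35.1 and 44.8 and that difference was not called. Klk14, a serine protease of shedding cells, was at 92.7, 79.3, 80.1 and 47.4 in mouse and 2.65, 3.11, 1.49 and 3.25 in spiny mouse. Its difference was -4.84 (SE 0.27, adjusted p 6.2e-08) in treated skin and 2.71 in untreated skin (adjusted p 0.00339), so the order of the species turned. Tgm3, a cross-linking transglutaminase, also turned, from 2.12 without treatment to -3.57 with it. The envelope precursor Sprr4 was at 1697, 1653, 1763 and 2359.8 in mouse and 56.6, 54.6, 56.96 and 66.1 in spiny mouse, and Sprr1a at 2385, 3672, 4086 and 3222 in mouse and 1013, 1211, 917 and 1313 in spiny mouse. The plakin Evpl (envoplakin), involucrin (Ivl) and Tgm1 were lower at log2 -1.42, -0.98 and -0.66 on the log2 scale.

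A smaller set of barrier genes was higher in treated spiny mouse skin. Casp14, the protease that acts on filaggrin, was at 702, 531, 516 and 413 in mouse and 1382, 1485, 845 and 1018 in spiny mouse, a difference of 1.13 (SE 0.20, adjusted p 0.000393). Its untreated difference was larger, 2.97, and the change of -1.84 was called. The S100-fused protein hornerin (Hrnr) was higher by 1.31, the small proline-rich gene Sprr1b by 1.15 and the lipid transporter Abca12 by 0.88. The change of Sprr1b was -1.33, so its untreated difference was larger, though that call was lost without some single libraries. Sprr3 had 3 counts in all over the 4 treated mouse samples and 446 in spiny mouse, a ratio of 106.6 with an exact 95% counting interval of 36.2 to 518.8, which covers counting error only. Hair follicle markers also differed between the treated groups, at summed levels of 51024 to 54152 in mouse and 413 to 10725 in spiny mouse. Their part in the keratin and envelope differences, which went both ways, was not tested.

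**Figure D2:**
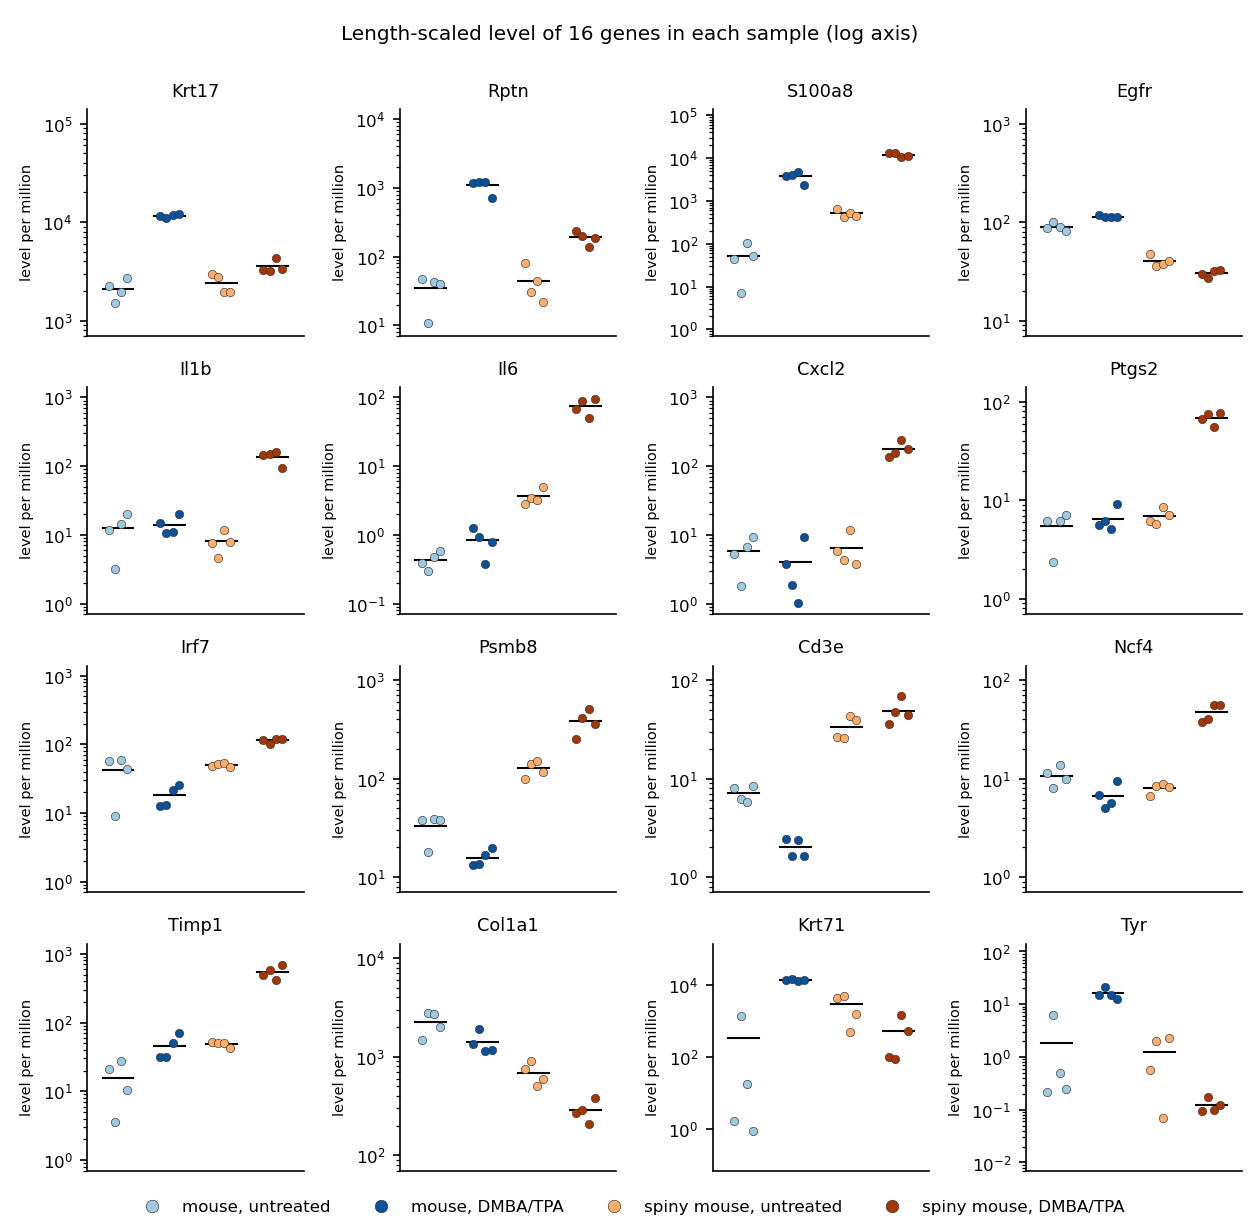
Length-scaled level (vertical axes, log scale) of 16 genes in each of the 16 samples. Points are samples, lines are group means (n = 4), and colours mark species and treatment. Il1b, Il6, Cxcl2, Ptgs2, Ncf4 and Timp1 have their highest group mean in treated spiny mouse skin, and Krt17, Rptn, Krt71 and Tyr in treated mouse skin.

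Alarmins, the calcium-binding and antimicrobial proteins that stressed keratinocytes and neutrophils release, split between the species. S100a8 (chromosome 3, 90576285 to 90577342) was the second most abundant joined gene of treated spiny mouse skin, at 13487, 13036, 10661 and 11021, and was at 3874, 4108, 4788 and 2299 in mouse. The difference of 1.68 (SE 0.20, adjusted p 1.69e-05) stood beside an untreated one of 3.32, and the change of -1.64 had an adjusted p of 0.0498 and was not called with libraries scaled to their totals (-1.37). Its partner S100a9, which forms calprotectin with S100a8, did not differ beyond the spread of the samples, at 4085 ± 1253 in mouse and 3442 ± 221 in spiny mouse (SD, n = 4 each, adjusted p 0.243), although without mouse replicate 4 it was called lower (-0.41). The deposited length of S100a8 is 0.57 of the mouse length in spiny mouse, while that of S100a9 is nearly equal. The psoriasin gene S100a7a had the widest gap among the alarmins with counts in both species, at 216, 255, 207 and 239 in mouse and 0.356, 0.159, 2.57 and 1.43 in spiny mouse. The untreated levels were 4.996 and 3.91, and the change of -7.34 was called (adjusted p 0.000142). The protease inhibitor Slpi went the other way, at 228, 200, 241 and 328 in mouse and 908, 841, 829.47 and 815 in spiny mouse. Pglyrp1, a peptidoglycan-binding protein of neutrophil granules, was at 1.94 to 3.32 in mouse and 45.4 to 65.1 in spiny mouse, and lactoferrin (Ltf) at 0.0384 to 0.275 in mouse and 9.01 to 43.5 in spiny mouse. Of 13 alarmins tested 5 were called higher and 7 lower, with a median of -0.72 in treated and 0.72 in untreated skin. The treated median became 0.70 among the 10 with under 10% shared exonic bases. Defb3 and Defb4, which had 0 counts in all 4 treated spiny mouse samples, share 93.9% and 99.1% of their exonic bases there with another annotated gene, and fragments assigned to several genes were not counted.

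Several cytokines of the innate response were far higher in treated spiny mouse skin. Il1b, the secreted interleukin of macrophages and neutrophils (chromosome 2, 129206490 to 129213059), was at 14.8, 10.5, 10.9 and 20.02 in mouse and 143, 149.7, 159 and 93.4 in spiny mouse. Every spiny mouse sample was above every mouse sample, and the difference was 3.27 (SE 0.23, adjusted p 3.1e-07). Without treatment the levels were 12.4 ± 7.02 and 8.004 ± 2.95, a difference that was not called, and the change of 3.90 was called (adjusted p 5.34e-05). Il1a, the form held ready inside keratinocytes, had the opposite order, at 47.04, 42.8, 45.8 and 39.6 in mouse and 14.5, 22.6, 21.7 and 14.9 in spiny mouse. The receptor antagonist Il1rn, which blocks both, was higher in spiny mouse by 1.74. The interleukin Il6 was at 1.26, 0.934, 0.382 and 0.781 in mouse and 68.4, 87.9, 49.7 and 95.01 in spiny mouse, a difference of 6.53 (SE 0.31, adjusted p 1.82e-08) against 3.04 without treatment. Oncostatin M (Osm), a cytokine of the same family made by myeloid cells, was at 1.51, 1.07, 0.642 and 2.14 in mouse and 61.7, 64.9, 31.4 and 64.2 in spiny mouse. Lif, also of that family, was higher by 1.86.

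Il24 was at 6.33, 4.68, 4.31 and 8.41 in treated mouse and 93.1, 138, 91.4 and 149 in treated spiny mouse skin, a difference of 4.31 (SE 0.25, adjusted p 6.88e-08), and the untreated means were 0.199 and 0.729. Il24 belongs to the interleukin-10 family and acts on keratinocytes. The alarm cytokine Il33 was higher in spiny mouse by 1.07, and Il18, whose spiny mouse gene length is 2.49 of the mouse length, was lower at log2 -1.01 but higher without division by length (0.61). Tnf was at 3.48 to 6.52 in mouse and 8.24 to 22.4 in spiny mouse, a difference of 1.48 (SE 0.34, adjusted p 0.00221). Of 18 cytokines tested 10 were called higher and 4 lower, with a median of 1.09 in treated and 0.46 in untreated skin. Il17a, Il20 and Il22 were too low to be tested, and the Il36 genes were not among the joined genes.

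Chemokines were also called higher more often than lower. Of 18 tested 13 were called higher and 2 lower, with a median of 1.70 in treated and 0.72 in untreated skin, and the change was called upwards for 9 of 19 and downwards for 2. Cxcl2, which draws neutrophils, was at 3.78, 1.88, 1.03 and 9.23 in mouse and 134, 153, 244 and 175 in spiny mouse. The lowest spiny mouse sample was over 10 times the highest mouse sample, and the untreated means were 5.75 and 6.37. Ccl3, a chemokine of macrophages and T cells, was higher by 3.45 (SE 0.36, adjusted p 6.38e-06), and Cxcl5, another ligand of the neutrophil receptor, by 3.12 (SE 0.32, adjusted p 5.29e-06). Cxcl10, induced by interferon, was at 1.19, 2.88, 3.71 and 3.07 in mouse and 5.79, 31.1, 50.1 and 26.2 in spiny mouse. Spiny mouse replicate 1 was the lowest of its group for Cxcl10, Cxcl9 and Ccl5. Cxcl14, a chemokine that epithelia make constantly, was 1 of the 2 called lower, at 565, 539.6, 645 and 874 in mouse and 78.4, 91.9, 109 and 83.8 in spiny mouse. Its difference of -2.85 in treated skin stood against 0.64 in untreated skin, and the change of -3.49 was called (adjusted p 2.86e-08). The other was Ccl27a, a chemokine of keratinocytes, at 14.1 to 22.6 in treated mouse skin and at 0 counts in every spiny mouse sample, where 95.96% of its exonic bases are shared with another gene.

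Interferon-stimulated genes are switched on by transcription factors that interferon activates and that bind a repeat of GAAA in their promoters. The motif GAAANNGAAA, searched on both strands in the 250 bases before the gene start, was in 8 of the 18 promoters of the list found in a RefSeq table of mouse promoters (44.4%, build GRCm38.p6), in 302 of 11669 promoters of genes tested in treated skin (2.59%) and in 821 of 27025 promoters of the table (3.04%). Where the table gives several starts, the first was taken. The windows below show all 8, so that the motif can be set beside the values of these genes. Each is 30 bases of the mouse genome read along the gene, with the motif or its reverse complement in capitals. Isg15 had 3 matches and Ifit1, Bst2 and Ifit3 had 2 each, and for these the match nearest the gene start is marked. A match is a description of letters, the windows are from mouse only, and no spiny mouse promoter was searched.
Isg15: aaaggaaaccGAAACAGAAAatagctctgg
Ifit1: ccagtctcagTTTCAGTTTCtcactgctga
Bst2: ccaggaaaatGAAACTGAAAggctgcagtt
Oas3: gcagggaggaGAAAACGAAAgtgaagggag
Rsad2: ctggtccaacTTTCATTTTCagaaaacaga
Stat2: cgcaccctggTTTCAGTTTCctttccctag
Gbp2: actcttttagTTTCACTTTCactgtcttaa
Ifit3: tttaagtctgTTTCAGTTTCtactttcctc
In the order shown the windows lie at chr4:156200865-156200894 (minus strand), chr19:34640794-34640823 (plus strand), chr8:71537577-71537606 (minus strand), chr5:120777715-120777744 (minus strand), chr12:26456553-26456582 (minus strand), chr10:128270266-128270295 (plus strand), chr3:142620594-142620623 (plus strand) and chr19:34583397-34583426 (plus strand) of GRCm38.p6, with the motif ending 56, 75, 114, 65, 110, 212, 49 and 112 bases before the gene start. Isg15 and Bst2 encode a ubiquitin-like modifier and a tether of budding virus, Ifit1 a sensor of foreign RNA ends, Rsad2 the enzyme viperin, Oas3 a sensor of double-stranded RNA and Stat2 a transcription factor of the response.

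In treated skin 15 of the 21 interferon-stimulated genes tested were called higher in spiny mouse and 3 lower, with a median of 1.12. In untreated skin the median was -0.48, with 3 called higher and 12 lower. The change was called upwards for 19 of 21 and downwards for none, with a median of 2.17, while 23.7% of all genes had an upward call. Irf7 (chromosome 7, 140842619 to 140846394), the factor that amplifies the response, was at 12.6, 13.1, 21.3 and 25.2 in mouse and 117, 101, 118 and 120.3 in spiny mouse. Every spiny mouse sample was above every mouse sample, and the difference was 2.65 (SE 0.21, adjusted p 7.14e-07) against 0.25 without treatment. The summed level of the list was 479 to 916 in treated and 303 to 380 in untreated spiny mouse skin, and 167 to 327 and 232 to 612 in mouse. Ifi44 had the widest upward gap of the list, at 0.404, 0.582, 0.801 and 0.839 in mouse and 15.5, 29.2, 30.5 and 12.97 in spiny mouse.

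The genes with a printed promoter window moved by different amounts. Ifit1 was at 3.16, 4.39, 7.89 and 10.1 in mouse and 14.5, 29.2, 44.02 and 17.1 in spiny mouse. Bst2 was at 25.3, 28.4, 40.8 and 59.5 in mouse and 83.8, 153, 189 and 159 in spiny mouse, higher by 1.91 (SE 0.30, adjusted p 0.000139), and Stat2 was higher by 0.99 (SE 0.13, adjusted p 2.99e-05). Rsad2 was higher by 1.12 (SE 0.37, adjusted p 0.0166), with groups that overlapped. Isg15 and Oas3 were not called (adjusted p 0.489 and 0.101, while Oas3 was called without spiny mouse replicate 1 at 1.09), and both were lower in untreated spiny mouse skin at log2 -2.46 and -3.72. Their changes of 2.17 and 4.54 were called. Within the spiny mouse group the order of samples was shared by several of these genes, since replicate 1 was the lowest and replicate 3 the highest for Isg15, Ifit1 and Bst2. Gbp2, a guanylate-binding GTPase, and Ifit3 hold the motif too and were called lower. They share 100% and 83.2% of their exonic bases with another gene of the spiny mouse annotation, and Gbp2 had 0 counts there in every sample.

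Genes that prepare peptides for MHC class I were higher in treated spiny mouse skin. Of 12 tested, 9 were called higher and none lower, with a median of 1.57 in treated and 1.14 in untreated skin. Psmb8 and Psmb9 encode catalytic subunits of the immunoproteasome, and Tap1 a subunit of the peptide transporter. Psmb8 was at 13.1, 13.6, 16.6 and 19.9 in mouse and 254, 411, 512 and 359.7 in spiny mouse. The difference was 4.60 (SE 0.23, adjusted p 2.77e-08), of which 1.94 was present without treatment, and the gene length in spiny mouse is 0.37 of that in mouse. Tap1 was at 44.5, 40.01, 43.4 and 50.5 in mouse and 195, 282, 317 and 261 in spiny mouse, with a difference of 2.56 (SE 0.14, adjusted p 6.27e-08). The light chain of the MHC molecule, B2m, reached 2283 to 2602 in mouse and 1820.4 to 3133 in spiny mouse and was not called (adjusted p 0.473), whereas its untreated difference was -1.18 and called. T and NK lymphocyte markers moved with the interferon and MHC lists, 21 of 23 called higher at summed levels of 181 to 409 in treated spiny mouse and 32.1 to 41.9 in treated mouse skin, and their part in these differences was not tested.

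Markers of T and NK lymphocytes had the highest treated median among the lists with more than 5 tested genes. Of 23 tested 21 were called higher and none lower, and the median of 2.61 in treated skin stood against 0.00 in untreated skin. The change was called upwards for 20. Cd3e, a chain of the T cell receptor complex (chromosome 9, 44910038 to 44920925), was at 2.43, 1.63, 2.37 and 1.63 in mouse and 35.6, 47.1, 69.1 and 43.7 in spiny mouse, a difference of 4.60 (SE 0.24, adjusted p 3.71e-08). Part of it was present without treatment (2.25), and the gene length in spiny mouse is 0.33 of that in mouse. Cd2, an adhesion receptor whose untreated difference was 0.0041, was at 2.08, 2.699, 2.82 and 3.499 in mouse and 22.2, 29.6, 38.6 and 33.3 in spiny mouse after treatment. Cd8a, the coreceptor of cytotoxic T cells, was at 0.524, 0.713, 0.766 and 1.19 in mouse and 7.69, 22.1, 41.4 and 19.3 in spiny mouse, and Cd4, that of helper cells, at 2.88, 2.13, 3.52 and 4.43 in mouse and 13.9, 14.3, 16.4 and 15.8 in spiny mouse. Cytotoxic granule genes were higher too, perforin (Prf1) by 3.71 (SE 0.40, adjusted p 9.25e-06) and granzyme A (Gzma) by 3.75 (SE 0.56, adjusted p 0.000113). Foxp3, the factor of regulatory T cells, was low in both, at 0.887 to 1.13 in mouse and 1.54 to 2.897 in spiny mouse, and higher in spiny mouse by 1.18 (SE 0.22, adjusted p 0.000589). The checkpoint receptor Ctla4 was higher by 2.07 and Pdcd1 by 1.24. Spiny mouse replicate 1 had the lowest and replicate 3 the highest summed level of this list, at 181, 277, 409 and 285 in replicates 1 to 4, while mouse was at 32.1, 34.4, 39.04 and 41.9. In untreated skin the sums were 108.02 to 163 in spiny mouse and 69.9 to 119.8 in mouse, so that the treated mouse samples were below all untreated ones and the treated spiny mouse samples above them. Gzmk was not tested, with 3 or fewer counts in every group.

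Neutrophil and myeloid receptor genes were higher in spiny mouse for 12 of 14 tested and lower for 1. Their summed level was 239 to 384 in treated spiny mouse and 86.8 to 129 in treated mouse skin, with no overlap, and the median of 1.66 stood against -0.56 in untreated skin. Ncf4, a subunit of the oxidase that makes superoxide, was at 6.797, 4.97, 5.65 and 9.45 in mouse and 37.7, 40.2, 55.4 and 55.5 in spiny mouse, a difference of 2.81 (SE 0.21, adjusted p 5.49e-07) against -0.42 without treatment. Clec7a, the receptor for fungal glucan, was at 8.25 to 19.5 in mouse and 32.7 to 67.98 in spiny mouse. Cxcr2, the neutrophil receptor for Cxcl2, did not follow, at 18.02, 14.6, 15.4 and 15.9 in mouse and 15.96, 18.7, 21.4 and 16.1 in spiny mouse (adjusted p 0.178). The toll-like receptor Tlr2 was the gene called lower, at log2 -1.23.

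Macrophage markers went both ways. Of 11 tested 4 were called higher and 5 lower, with a median of -0.24 in treated skin, which became 0.06 without division by length, and of -0.65 in untreated skin. Cd163, a scavenger receptor of resident and repair macrophages, was at 23.7, 27.6, 36.8 and 30.9 in mouse and 159, 106, 114 and 241 in spiny mouse, a difference of 2.38 (SE 0.26, adjusted p 8.67e-06) against -0.56 without treatment, and the mannose receptor Mrc1 was at 77.04, 81.7, 99.3 and 91.4 in mouse and 232, 197, 203 and 338 in spiny mouse. Adgre1, which encodes the F4/80 antigen, was lower, at 30.3, 36.1, 42.1 and 44.7 in mouse and 9.52, 13.7, 29.9 and 11.8 in spiny mouse, and so was the complement gene C1qa at log2 -0.89. Dendritic and Langerhans cell markers were called higher for 7 of 10 and lower for 2, with a median of 0.83 in treated and -0.65 in untreated skin, and the change was called upwards for 8. Cd207, the langerin of Langerhans cells, was 1 of the 2 called lower, at 8.41 to 10.5 in mouse and 5.53 to 6.598 in spiny mouse and shares 66.6% of its exonic bases with another gene in spiny mouse. Mast cell genes were higher for 7 of 8 tested and lower for 1, with a median of 1.34 in treated and 1.05 in untreated skin. Hdc, which makes histamine, was at 4.298, 2.54, 3.301 and 5.25 in mouse and 53.3, 64.98, 39.6 and 59.99 in spiny mouse, and the protease Cpa3 at 32.7 to 40.7 in mouse and 71.8 to 125 in spiny mouse. Both were already higher in untreated spiny mouse, by 2.69 and 1.11. Mcpt4 was at 0 counts in every spiny mouse sample, at least 1098-fold lower in treated skin against a floor of 3 counts over the group, and all of its exonic bases there are shared with another gene.

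**Figure D3:**
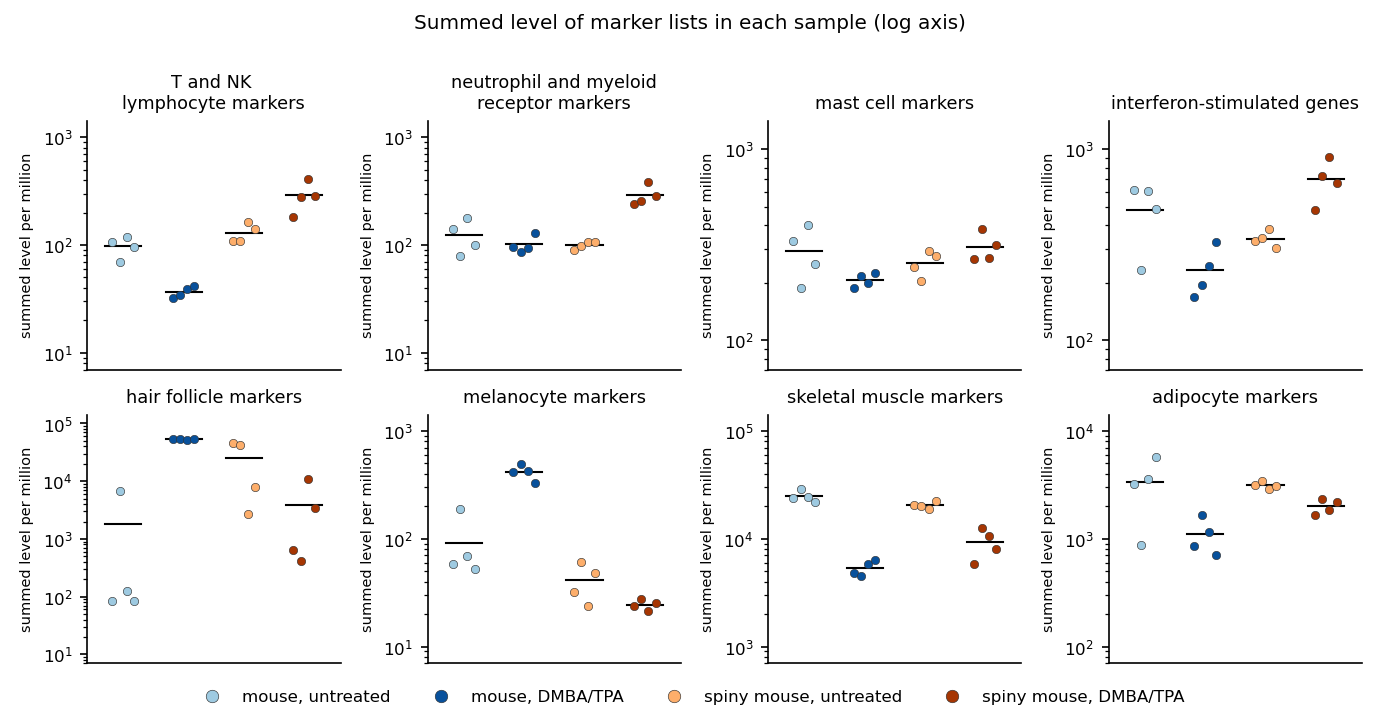
Summed length-scaled level (vertical axes, log scale) of 8 marker lists in each of the 16 samples, with group means as lines (n = 4). Lymphocyte and myeloid receptor lists are highest in treated spiny mouse skin, and hair follicle and melanocyte lists are highest in treated mouse skin.

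**Figure D4:**
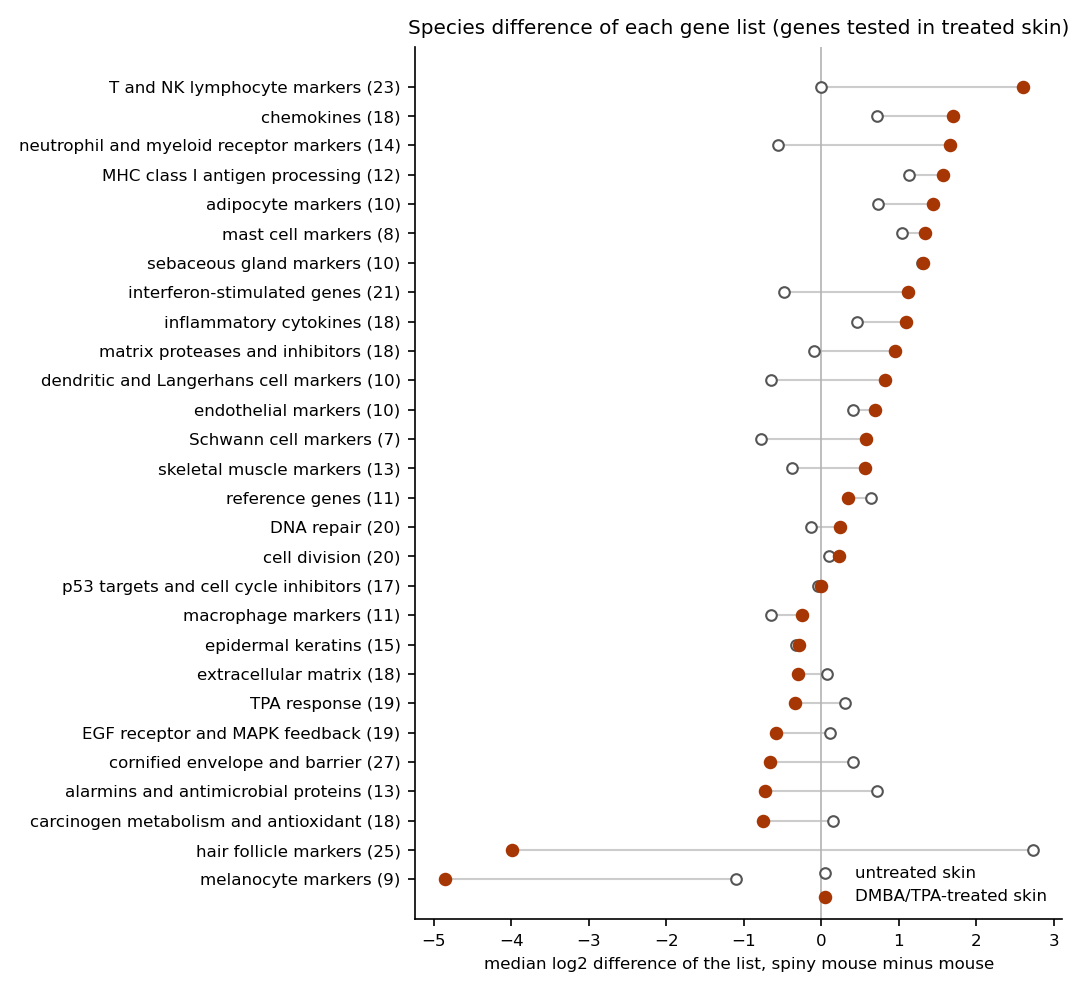
Median log2 species difference (horizontal axis, spiny mouse minus mouse) of 28 gene lists in treated skin (filled points) and untreated skin (open points). The number of genes tested in treated skin stands beside each name, and lists of 5 or fewer tested genes are left out. The lymphocyte list has the highest treated median at 2.61 and the melanocyte list the lowest at -4.86.

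Cell division genes differed in both directions, mostly by small amounts. Of 20 cell division genes tested 9 were called higher and 5 lower, with a median of 0.23 in treated and 0.10 in untreated skin, and the change was called for 3, or for 10 with libraries scaled to their totals. Mki67, the usual marker of cycling cells, was at 111, 99.01, 98.6 and 83.9 in mouse and 93.7, 65.6, 70.2 and 63.6 in spiny mouse, a difference of -0.42 (SE 0.13, adjusted p 0.0132) with overlapping groups, and without division by length it was -0.097 and not called. Both were above the untreated means of 44.2 and 23.5. Ccnb1, the cyclin of mitotic entry, was higher in spiny mouse by 1.10 (SE 0.11, adjusted p 5.37e-06), and the replication clamp Pcna by 1.14 (SE 0.061, adjusted p 4.37e-08). The untreated differences were 0.57 and 1.22, and the gene lengths in spiny mouse are 0.55 and 0.52 of those in mouse. Top2a, Ccnb2 and Ccna2 were not called. Birc5 was lower at log2 -4.82 and shares 28.1% of its exonic bases with another gene in spiny mouse.

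The epidermal growth factor receptor pathway drives keratinocyte growth and lies downstream of TPA in this model. The list of its ligands, receptors, Ras genes and MAP kinase feedback genes was mostly lower in treated spiny mouse skin. Of 19 genes tested 13 were called lower and 2 higher, with a median of -0.59 against 0.11 in untreated skin, and the change was called downwards for 11. With libraries scaled to their totals the change was called downwards for 5 of the 19. The receptor Egfr was at 119, 111, 112 and 112 in mouse and 29.7, 26.8, 31.8 and 32.9 in spiny mouse, a difference of -1.91 (SE 0.079, adjusted p 8.13e-09). It was lower without treatment too (-1.15), and the change of -0.75 was called (adjusted p 0.000629) but not with libraries scaled to their totals (-0.38). Its partner Erbb3 was at 151 to 179 in mouse and 61.7 to 72.5 in spiny mouse, whereas Erbb2 was not called (adjusted p 0.584). Among ligands, amphiregulin (Areg) was at 56.97, 42.9, 55.5 and 51.2 in mouse and 27.5, 28.4, 28.5 and 28.7 in spiny mouse. Transforming growth factor alpha (Tgfa) was at 116, 101, 101 and 105 in mouse and 66.7, 67.7, 60.8 and 60.96 in spiny mouse, and epigen (Epgn) was lower at log2 -1.02. Betacellulin (Btc) and Egf were the 2 genes called higher, at 14.9 to 16.4 against 31.1 to 47.8 and 0.981 to 1.79 against 17.1 to 31.01. Hbegf and Ereg were not called.

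Hras, the gene in which DMBA mutations are typically found, was slightly lower in spiny mouse. It was at 163, 196, 224 and 215 in mouse and 169, 173, 155 and 158 in spiny mouse, a difference of -0.28 (SE 0.098, adjusted p 0.0201) with overlapping groups that was not called without mouse replicate 3 (-0.22) or 4 (-0.25). Its relative Nras was lower at log2 -0.90 (SE 0.068, adjusted p 5.58e-07). Dusp6, Spry4 and Etv5 are genes of the same list that MAP kinase signalling switches on. The phosphatase Dusp6 was at 176, 175, 189.9 and 203 in mouse and 112, 103, 95.9 and 119 in spiny mouse, with an untreated difference of 0.51 in the other direction and a change of -1.30 (adjusted p 1.47e-05). The feedback inhibitor Spry4, with a spiny mouse length 2.13 of that in mouse, was lower at log2 -2.79 and the transcription factor Etv5 at -1.57.

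Genes tied to the tumour promoter TPA gave a mixed picture, 7 of 19 called higher and 10 lower, with a median of -0.34 in treated and 0.31 in untreated skin. Ptgs2, the inducible cyclooxygenase, was at 5.66, 6.12, 5.13 and 9.25 in mouse and 67.6, 75.5, 55.9 and 76.1 in spiny mouse. Its difference of 3.39 (SE 0.18, adjusted p 4.42e-08) stood against 0.34 without treatment (adjusted p 0.34), and the change was 3.05 (adjusted p 1.34e-05). The prostaglandin synthase Ptges, which acts after it, was lower in spiny mouse, at 109, 76.6, 83.3 and 65.4 in mouse and 25.5, 28.98, 18.7 and 48.9 in spiny mouse. Odc1, the first enzyme of polyamine synthesis, was at 115, 107, 117 and 126 in mouse and 82.3, 85.01, 85.9 and 83.7 in spiny mouse, a difference of -0.47 (SE 0.061, adjusted p 3.67e-05) against 0.74 without treatment. Of the AP-1 subunits, Jund, Jun and Junb were lower at log2 -1.50, -0.70 and -0.69, where Jund shares 52.6% of its exonic bases in mouse with another gene, and Fosb was higher by 3.04. Fosl2 was not called. Protein kinase C alpha (Prkca), a receptor of TPA, was at 20.8, 21.95, 20.6 and 21.8 in mouse and 10.8, 10.8, 12.9 and 11.4 in spiny mouse, while the beta isoform Prkcb was higher by 1.73. Prkcb is also expressed in lymphocytes and myeloid cells.

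The tumour suppressor Trp53 was at 67.6, 66.7, 69.3 and 63.6 in mouse and 172, 167, 163 and 157 in spiny mouse, a difference of 1.30 (SE 0.058, adjusted p 1.26e-08) against 1.66 without treatment. The change of -0.36 was called (adjusted p 0.0202) but was 0.0037 with libraries scaled to their totals. Its target Cdkn1a, which halts the cycle, went the other way, at 375, 373, 411 and 413 in mouse and 176, 175, 188 and 189.9 in spiny mouse. The difference of -1.11 (SE 0.069, adjusted p 1.36e-07) stood against -0.062 without treatment, and the change of -1.05 was called. Mdm2, which degrades p53, was higher in spiny mouse by 0.998 and the death effector Bax by 0.86, whereas the death effector Bbc3 was lower at log2 -1.75. Of the 17 genes of this list 6 were called higher and 7 lower, with a median of -0.0038 in treated and -0.037 in untreated skin. DNA repair genes were called higher for 10 and lower for 4 of 20, with a median of 0.24 in treated and -0.14 in untreated skin, and without division by length 7 were called each way. The base excision enzyme Apex1 was at 16.6, 17.2, 21.5 and 22.8 in mouse and 114, 121, 123 and 102 in spiny mouse. Of its exonic bases in mouse 61.7% are shared with another gene. Chek2 was lower at log2 -1.51, and its untreated difference was -1.60. The damage sensors Atr and Chek1 were higher by 0.80 and 0.72, and neither was called in untreated skin. Without division by length the treated difference of Atr was 0.060 and not called.

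Genes of carcinogen metabolism and the antioxidant response differed in both directions, 6 of 18 called higher and 11 lower, with a median of -0.75 in treated and 0.15 in untreated skin. Cyp1b1, which carries out the activating step in skin, was at 57.5, 58.8, 54.8 and 62.5 in mouse and 23.9, 21.7, 27.9 and 27.8 in spiny mouse, a difference of -1.21 (SE 0.088, adjusted p 4.18e-07) against -0.25 without treatment. Cyp1a1, induced through the same receptor, was at 12.2, 11.98, 10.3 and 10.8 in mouse and 42.98, 35.7, 35.9 and 43.3 in spiny mouse, and the receptor gene Ahr was higher by 0.85. Epoxide hydrolase (Ephx1), which acts between cytochrome steps, was lower at log2 -1.07 (SE 0.083, adjusted p 7.01e-07). Among the glutathione genes, the transferase Gstm1 was at 115, 102, 110 and 119.8 in mouse and 395, 472, 426 and 409.8 in spiny mouse and the transferase Gsta4 at 194, 131, 197 and 105 in mouse and 52.9, 46.6, 55.4 and 42.8 in spiny mouse. Gclc, the first enzyme of glutathione synthesis, was at 81.4, 83.9, 87.4 and 95.1 in mouse and 39.5, 38.02, 43.3 and 37.5 in spiny mouse, with an untreated difference in the other direction (0.67) and a change of -1.80 (adjusted p 3.72e-06). The quinone reductase Nqo1, with a spiny mouse length 2.85 of that in mouse, and heme oxygenase Hmox1 were lower at log2 -1.56 and -1.25, and without division by length Nqo1 was at 0.25. Gstp1 had 0 counts in treated spiny mouse, where 99.6% of its exonic bases are shared with another gene.

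The main dermal collagens were lower in treated spiny mouse skin, and matrix proteases and their inhibitors were more often higher than lower. Col1a1, the main chain of dermal collagen, was at 1352, 1932, 1137 and 1180.0 in mouse and 269, 289.8, 209 and 384 in spiny mouse, a difference of -2.28 (SE 0.22, adjusted p 3.03e-06) that was present without treatment (-1.70). Col3a1 was at 966, 1487, 982 and 1035 in mouse and 377, 416, 338 and 447 in spiny mouse, and here the untreated difference of -0.19 was not called and the change of -1.32 was. Of 18 matrix genes 4 were called higher and 9 lower, with a median of -0.30 in treated and 0.072 in untreated skin. Periostin (Postn) was at 209 to 303 in mouse and 419 to 506 in spiny mouse, but its gene length in spiny mouse is 0.39 of that in mouse, and the difference of 0.96 became -0.098 without division by length. The wound matrix genes Tnc and Fn1 were not called. Timp1, an inhibitor of matrix metalloproteinases, was at 31.8, 31.02, 50.2 and 71.3 in mouse and 495, 585, 421 and 686 in spiny mouse, a difference of 3.56 (SE 0.27, adjusted p 5.82e-07). The neutrophil collagenase Mmp8 was at 2.04, 2.34, 2.46 and 1.79 in mouse and 26.7, 26.1, 43.4 and 24.6 in spiny mouse. Its change of -1.23 was called, so its untreated difference was larger still. The protease Adam8 was higher by 1.78. Mmp9 (gelatinase B) and the collagenase Mmp13 were not called, and 1 sample of each species stood far above the rest, such as 29.96, 32.5, 34.04 and 181 in mouse and 53.4, 88.7, 49.9 and 504 in spiny mouse for Mmp13. Without mouse replicate 4 Mmp13 was called higher (2.43), and without spiny mouse replicate 4 its difference was -0.12. Of 18 proteases and inhibitors 9 were called higher and 2 lower, with a median of 0.95 in treated and -0.090 in untreated skin.

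Hair follicle genes had the opposite order to the immune genes, with larger sums. Keratins such as Krt71, Krt27 and Krt25 form the inner root sheath of a growing hair, and Krt86 and its relatives the hair shaft. Krt71 (chromosome 15, 101642384 to 101651544) was at 13768, 14358, 12865 and 14161 in treated mouse and 99.7, 90.1, 1462 and 529 in treated spiny mouse skin. All 25 hair genes tested had groups that did not overlap, as had 76.3% of all genes, and 21 were called lower in spiny mouse against 39.3% of all genes, with a median of -3.99. The 4 others, Krt86 (adjusted p 0.072), Krt81, Krt33b and Krt34, are shaft keratins and were not called. Their spiny mouse samples spread widely, at 64.3, 26.8, 1701 and 359.9 for Krt86 against 2776, 2336, 2087 and 2089 in mouse, and without spiny mouse replicate 3 Krt86 was called (log2 -3.95). By DESeq2 13 of the 25 were called lower. In untreated skin the median was 2.73, with 5 called higher and none lower, and the change was called downwards for all 25. The untreated spiny mouse samples were split, with summed levels of the list at 46673, 43226, 2670 and 7791 in replicates 1 to 4. The untreated differences and the changes of these genes carry that split. The list took 4.48% to 4.98% of the summed level in treated mouse, 0.0373% to 1.01% in treated spiny mouse, 0.274% to 4.28% in untreated spiny mouse and 0.00942% to 1.02% in untreated mouse skin. The 46 joined keratin-associated protein genes took 5.47% to 6.30% of the summed level in treated mouse and 0.0348% to 1.34% in treated spiny mouse skin. Hoxc13, a regulator of the hair shaft, was at 215, 215, 226 and 219.8 in mouse and 6.84, 5.09, 23.5 and 14.8 in spiny mouse, and the follicle signal Shh at 8.39 to 10.5 in mouse and 0.176 to 0.569 in spiny mouse. Within treated spiny mouse skin replicate 3 was the highest and replicate 2 the lowest for Krt86 and Hoxc13.

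Pigment cell genes were lower in treated spiny mouse skin for all 9 tested against 39.3% of all genes, with a median of -4.86 against -1.09 in untreated skin, where 3 were called. Tyrosinase (Tyr, chromosome 7, 87073979 to 87142720), the first enzyme of melanin synthesis, was at 15.2, 21.7, 14.98 and 12.8 in mouse and 0.0936, 0.171, 0.0985 and 0.121 in spiny mouse, a difference of -7.01 (SE 0.26, adjusted p 3.81e-09). Dct, a later enzyme of the same path, was at 59.9, 71.6, 59.1 and 44.4 in mouse and 3.41, 4.84, 3.096 and 3.86 in spiny mouse. Mitf, the master factor of melanocytes, was lower at log2 -2.32 (SE 0.067, adjusted p 8.99e-10). The summed level of the list was 329.7 to 491 in treated mouse and 21.3 to 27.5 in treated spiny mouse skin. In mice follicular melanocytes are active while hair grows, and in these data the hair and melanocyte lists were both highest in treated mouse skin. In untreated spiny mouse skin the melanocyte list summed to 32.2, 61.03, 23.9 and 48.4, and the hair list to 46673, 43226, 2670 and 7791. A link between the 2 lists was not tested.

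Markers of other tissues in the samples differed as well. Skeletal muscle markers summed to 4498 to 6326 in treated mouse and 5878 to 12562 in treated spiny mouse skin, with 8 of 13 called higher and 2 lower and a median of 0.57 against -0.37 in untreated skin. Acta1, the actin of muscle fibres, was at 2184 to 3107 in mouse and 2673 to 5785 in spiny mouse. Adipocyte markers were called higher for 8 of 10 and lower for 1, with a median of 1.44 against 0.74 in untreated skin, and adiponectin (Adipoq) was at 66.6, 123, 82.4 and 50.2 in mouse and 262, 434, 338 and 362 in spiny mouse. Sebaceous gland markers were called higher for 7 of 10 and lower for 2, with a median of 1.32 against 1.31 in untreated skin. The wax synthase Awat1 was at 128, 120.1, 107 and 115 in mouse and 602, 561, 619.6 and 682 in spiny mouse, and Soat1, which stores sterols as esters, at 87.6, 76.1, 63.3 and 60.97 in mouse and 756, 665, 699 and 747 in spiny mouse, both with untreated differences of like size (2.15 and 3.78). Endothelial markers were called higher for 7 of 10 and lower for 2, with a median of 0.70 against 0.41 in untreated skin. Schwann cell markers were called higher for 4 of 7 and lower for 1, with a median of 0.58 against -0.77. Erythroid markers were called lower for all 3 tested, with a median of -3.94 against -2.31. Hbb-bs, 1 of these, had 0 counts in treated spiny mouse skin, so its difference is a bound only. B and plasma cell markers were called higher for 2 and lower for 1 of 5. Albumin and Apob, the liver markers tested, were higher in treated spiny mouse skin, albumin (Alb) at 0.489 to 1.13 in mouse and 25.8 to 38.95 in spiny mouse. In untreated mouse skin the liver markers summed to 929, 5.68, 7.92 and 9.17, so replicate 1 was far above the other 3, and without it the untreated differences of Alb and Apob were called higher in spiny mouse at 3.46 and 1.82 in place of -1.78 and -1.75, which were not called. The part of these tissues in the other differences was not tested.

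Some genes differed in treated skin and had little or no difference in untreated skin. Among genes with a mean level of at least 10 in the higher group, groups that did not overlap and lengths within a factor of 2, 1967 had a called treated difference and an untreated difference that was neither called nor over 0.5 in size, 818 higher and 1149 lower in spiny mouse. The largest upward difference was that of Coch, which encodes the secreted matrix protein cochlin, at 41.2, 38.8, 41.8 and 62.2 in mouse and 997, 782, 668 and 1239.7 in spiny mouse, a difference of 4.32 (SE 0.24, adjusted p 4.81e-08) against 0.38 without treatment. Next was Cd7, a surface protein of T and NK cells, at 4.38, 2.15, 3.86 and 2.75 in mouse and 42.1, 44.4, 102 and 53.3 in spiny mouse. Iigp1, an interferon-induced GTPase, was at 6.58, 13.5, 12 and 14.6 in mouse and 49.3, 166, 245 and 129.7 in spiny mouse, with replicate 1 lowest and replicate 3 highest in spiny mouse as for Ifit1. Ramp3, a partner of the adrenomedullin receptor, and Cd226, an activating receptor of T and NK cells, followed at 3.64 and 3.56. The largest downward gaps were those of S100a7a, Krtap19-9b, Psors1c2, Tgm6 and Krtap10-4, from -7.63 to -5.73. Tgm6 is in this set through untreated mouse replicate 2, without which its untreated difference was called at 5.21 (adjusted p 0.00193). Without that library the change of Krtap10-4 moved from -6.17 to -12.64, so its small untreated difference rests on that library too. The Krtap genes encode proteins of the hair shaft, and Psors1c2 was at 1667 to 1990.1 in mouse and 2.404 to 48.5 in spiny mouse.

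Krt14 was the most abundant joined gene of both treated skins. The top 10 genes held 9.19% to 9.81% of the summed level in treated mouse and 7.69% to 9.10% in treated spiny mouse skin. In mouse the 10 by mean were Krt14, Krt71, Krt17, Krtap8-1, Krt5, Krt27, Rplp1, Krt16, Eef1a1 and Krt25. Krt71, Krtap8-1, Krt27 and Krt25 are genes of the hair follicle, and Krt17 is a keratin of the follicle and of stressed epidermis. In spiny mouse they were Krt14, S100a8, Krt5, Lgals7, Actb, Eef1a1, Fabp5, Rpl41, Rplp1 and Krtdap. Lgals7, the galectin of stratified epithelia, was at 3634, 4414, 4712 and 3865 in mouse and 11708, 10229, 6837 and 9400.2 in spiny mouse. Fabp5, the fatty acid carrier of keratinocytes, was at 2130.1 to 2987 in mouse and 6027 to 9780.1 in spiny mouse, with a gene length in spiny mouse of 0.27 of that in mouse, and without division by length its difference was 0.086 and not called.

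The very largest gaps lay in genes that 1 of the tables could hardly count. The 10 largest gaps each way, among the 6680 called genes under the same limits, were at 0 to 6 counts in the lower group. Of these 20 genes 16 had at least 50% of their exonic bases shared with another annotated gene in the species where they were low, and 18 had an untreated difference called with the same sign. Among all joined genes, 88 had 0 counts in treated spiny mouse and a mean level of at least 10 in treated mouse, and 81 of them (92.0%) had such shared bases, against 2.27% of the 9630 genes at that mouse level. The reverse held for 21 genes, 12 of them shared (57.1%) against 1.64% of 9701. Examples are Dsg1b, a desmosomal cadherin with 0 counts in spiny mouse and 98.8% shared bases there, and Trex1, a DNA exonuclease with 0 counts in mouse and 100% shared bases there. Exceptions without such shared bases in the low species were Ces2h, Tmem45a2 and H2-T3 upwards and Sprr2d downwards. Ces2h, a carboxylesterase, was at 0 counts in treated mouse and at 97, 93.1, 89.9 and 85.4 in spiny mouse, at least 1960.2-fold higher against a floor of 3 counts over the group. Sprr2d, an envelope precursor of a family of similar copies, was at 1119.8, 984, 1561 and 1131 in mouse and at 0 counts in spiny mouse.

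Gene length moved with the species difference. The Spearman correlation of the treated difference with the log2 ratio of gene lengths was -0.36 across 14717 genes, which share the 8 libraries and are not independent, and 0.093 when counts were not divided by length. Genes with a spiny mouse length under 0.5 of the mouse length had a median difference of 0.98 (2183 genes, 77.0% called higher). Those within a factor of 2 had a median of -0.080 (12155 genes, 36.9% called higher and 42.9% lower), and those over 2 a median of -1.41 (379 genes, 74.1% called lower). Of 11 reference genes 6 were called higher and 2 lower. Gapdh and Ppia, with lengths of 0.42 and 0.21, were higher in spiny mouse by 2.34 and 2.24, and Ywhaz and Polr2a, with nearly equal lengths, were not called. Of the genes described above, Il6, Osm, Egf, Cd8a, Pglyrp1, Hdc, Soat1 and Dct have spiny mouse lengths of 0.38 to 0.47 of the mouse length, while those of Il1b, Ptgs2, Timp1, Krt17, Rptn, Krt71, Slpi, Prf1 and Egfr lie within 0.96 to 1.07.

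**Figure D5:**
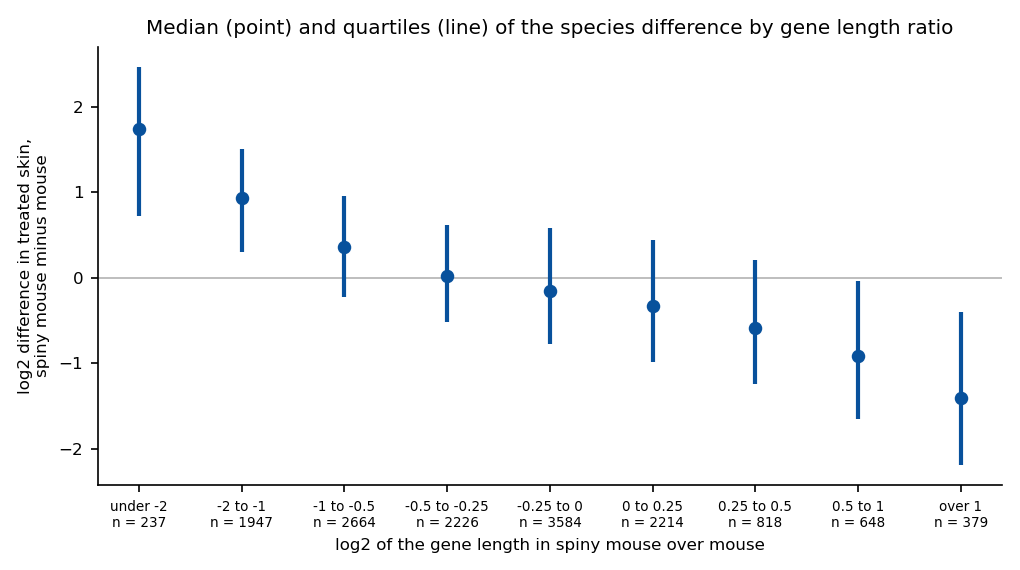
Species difference in treated skin (vertical axis, log2, spiny mouse minus mouse) by class of the log2 gene length ratio (horizontal axis, spiny mouse over mouse), as medians (points) and quartiles (lines) over the genes counted under each class. The median falls from 1.74 in the class with the shortest spiny mouse genes to -1.41 in that with the longest.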

How the data were processed

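Polyadenylated RNA of skin was sequenced in 16 samples, 4 in each combination of species and treatment, with paired reads. The deposited files hold whole-number counts of read pairs per gene, made by the authors with featureCounts 2.0.3, per the file headers. Both ends had to map, and the command recorded there sets no strand option and none to count fragments that hit several places or several genes. Mouse counts used an Ensembl 108 annotation of GRCm39 and spiny mouse counts an annotation of the AcoCah2 assembly, per the file headers, while the submitters' processing notes list GRCm39 for the samples of both species. The headers were followed. Libraries are stranded, per the labels' protocols. Trim Galore and HISAT2 are named in the submitters' processing notes. Strand and multiple hits matter here, since genes that overlap in one annotation can lose their counts.

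Mouse identifiers were given symbols from a GENCODE M39 table (56236 of 56980), and symbols found once in each table were joined (18110 genes). Counts were divided by the deposited gene length of each species and scaled with TMM factors over the 16 samples. Differences were tested with edgeR 4.0.16 in R 4.3.3 (quasi-likelihood, log length and effective size as offsets, filterByExpr, Benjamini-Hochberg adjustment), with the 8 treated samples alone for the treated difference, the 8 untreated samples alone for the untreated one and all 16 for the change. This step was tested on simulated data, drawn from the fitted spread with gene lengths taken as correct. That test cannot show errors of gene length, annotation or read mapping. Standard errors are the log2 difference divided by the square root of F. A list was described by its counts of calls and its median, and list members were not tested as a set.

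Genes named in the text are members of 32 gene lists, the 10 widest called differences in each direction under 3 limits (a mean level of at least 10, groups that do not overlap, lengths within a factor of 2), the 5 widest in each direction of those with an untreated difference that was not called and under 0.5, and the 10 most abundant genes of each treated group. A few members of the lists are not reported here. The comparison, the members and the lists were chosen with earlier results of these data known. Alternatives used other scaling factors, no division by length, a length limit, other filters, DESeq2 1.42.0, limma 3.58.1 on log2(level + 1), a replicate block, and each replicate left out. Limits on counts and on shared exonic bases were added after seeing the data. The labels do not say that samples of a group are separate animals, so p-values measure only the spread between these samples. Replicate numbers did not pair the species in treated skin, where deviations of same-numbered samples correlated at -0.037 to 0.161. No pair of replicates agreed within counting noise (chi-square per degree of freedom 11.1 to 196.8 over 24 pairs). Counting intervals are exact and cover counting error only.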

Additional observations from a re-analysis of the deposited data

Results flagged for a closer look

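In 22 of 402 groups of 4 treated samples checked, 1 sample stood apart from the other 3 by Dixon's test at 95%, where chance gives about 1 in 20. In mouse the highest sample stood apart for Alb (1.13), Coch (62.2), Col3a1 (1487), Cxcl5 (14.02), Defb3 (53.5), Egfr (119), Krt33b (1809), Mmp13 (181), Mmp9 (127), Psors1c2 (1990.1) and Sprr4 (2359.8). In mouse the lowest sample stood apart for Il18 (105), Nqo1 (27.03) and Rptn (713). In spiny mouse the highest sample stood apart for Krt17 (4357), Ltf (43.5), Mmp13 (504), Mmp8 (43.4) and Mmp9 (284). In spiny mouse the lowest sample stood apart for Irf7 (101), Osm (31.4) and Postn (419). Values are length-scaled levels.

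The species difference in treated skin differed from that in untreated skin, by the test of the change itself over the 16 samples (edgeR), for 123 of the 187 genes named in the text, upwards for 64 and downwards for 59. Values below are changes on the log2 scale. Among skeletal muscle markers the change was Acta1 (0.89). Among matrix proteases and inhibitors the changes were Mmp13 (3.43), Mmp9 (2.27), Adam8 (2.05), Timp1 (1.94) and Mmp8 (-1.23). Among macrophage markers the changes were Cd163 (2.94), Mrc1 (1.91) and Adgre1 (1.86). Among carcinogen metabolism and antioxidant the changes were Gstm1 (0.81), Ahr (0.70), Cyp1b1 (-0.96), Gclc (-1.80) and Gsta4 (-2.41). Among liver markers the changes were Apob (7.90) and Alb (7.32). Among DNA repair genes the changes were Chek1 (0.74), Atr (0.73) and Apex1 (-0.72). Among EGF receptor and MAPK feedback the changes were Egf (1.61), Erbb2 (-0.50), Nras (-0.59), Erbb3 (-0.59), Egfr (-0.75), Etv5 (-0.87), Areg (-1.14), Dusp6 (-1.30), Tgfa (-1.38) and Spry4 (-1.79). Among MHC class I antigen processing the changes were Psmb8 (2.66), Psmb9 (2.65), B2m (1.30) and Tap1 (1.25). Among interferon-stimulated genes the changes were Oas3 (4.54), Ifi44 (2.85), Rsad2 (2.76), Ifit1 (2.57), Irf7 (2.41), Isg15 (2.17), Bst2 (1.92) and Stat2 (1.38). Among cornified envelope and barrier the changes were Tgm1 (-1.20), Sprr1b (-1.33), Evpl (-1.58), Ivl (-1.59), Sprr4 (-1.68), Casp14 (-1.84), Sprr1a (-1.86), Rptn (-2.86), Tgm3 (-5.69) and Klk14 (-7.55). Among chemokines the changes were Cxcl2 (5.29), Ccl3 (4.10), Ccl5 (3.32), Cxcl10 (2.67) and Cxcl14 (-3.49). Among cell division genes the change was Ccnb1 (0.53). Among T and NK lymphocyte markers the changes were Gzma (4.79), Prf1 (3.92), Cd2 (3.46), Ctla4 (3.19), Cd3e (2.35), Cd8a (2.05) and Cd4 (1.42). Among dendritic and Langerhans cell markers the change was Cd207 (1.45). Among genes outside the lists the changes were H2-T3 (4.63), Cd7 (4.53), Coch (3.94), Iigp1 (3.75), Tmem45a2 (3.63), Cd226 (3.55), Ramp3 (3.38), Fabp5 (-1.03), Dsg1b (-4.40), Tgm6 (-5.91), Krtap10-4 (-6.17), Krtap19-9b (-6.67), Psors1c2 (-6.77) and Krtap8-1 (-7.76). Among p53 targets and cell cycle inhibitors the changes were Mdm2 (0.30), Trp53 (-0.36) and Cdkn1a (-1.05). Among neutrophil and myeloid receptor markers the changes were Clec7a (4.09), Ncf4 (3.24), Cxcr2 (1.52) and Tlr2 (1.19). Among extracellular matrix the changes were Postn (-1.31) and Col3a1 (-1.32). Among melanocyte markers the changes were Mitf (-1.05), Dct (-3.46) and Tyr (-6.43). Among TPA response: protein kinase C, AP-1, polyamine and prostaglandin the changes were Ptgs2 (3.05), Fosb (1.83), Prkcb (1.37), Jun (-0.64), Fosl2 (-0.66), Prkca (-0.68), Jund (-1.18) and Odc1 (-1.21). Among mast cell markers the change was Hdc (1.13). Among hair follicle markers the changes were Hoxc13 (-5.67), Shh (-7.03), Krt33b (-7.13), Krt34 (-7.24), Krt86 (-7.31), Krt81 (-7.44), Krt25 (-7.57), Krt71 (-7.75) and Krt27 (-8.14). Among inflammatory cytokines the changes were Osm (4.79), Il1b (3.90), Il6 (3.49), Il24 (2.48), Lif (2.30), Tnf (1.60), Il1rn (1.17), Il1a (-1.23) and Il18 (-1.70). Among epidermal keratins the change was Krt1 (-1.47). Among stress keratins the change was Krt17 (-1.91). Among alarmins and antimicrobial proteins the changes were Pglyrp1 (4.41), S100a8 (-1.64) and S100a7a (-7.34). The values of Dsg1b and H2-T3 are fitted with a group at 0 counts and depend on the prior count. Some changes moved by over 1.5 times with 1 library left out. Without untreated mouse replicate 1 they were Alb (2.09) and Apob (4.33), and without replicate 2 Krt25 (-13.21), Krt27 (-13.04), Krt33b (-16.36), Krt34 (-14.07), Krt71 (-13.38), Krt81 (-14.34), Krt86 (-14.18), Krtap10-4 (-12.64), Krtap8-1 (-13.35) and Tgm6 (-11.16). Without treated spiny mouse replicate 4 they were Mmp13 (1.99) and Mmp9 (1.11). With each of the 16 libraries left out in turn, 14 of the changes lost their call without at least 1 of them, with the highest adjusted p given here: Cxcr2 (0.0847), H2-T3 (0.0616), Il1a (0.0565), Il24 (0.176), Krt33b (0.0651), Krt34 (0.0661), Krt81 (0.0542), Krt86 (0.0598), Mdm2 (0.0785), Mmp13 (0.16), Mmp9 (0.148), Prkca (0.0524), S100a8 (0.0919) and Sprr1b (0.103).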

How the results depend on the processing

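The count of genes called in treated skin stayed between 11307 and 12907 under every alternative except 2 that test fewer genes. Among genes with lengths within 1.5-fold of each other 7444 were called (3747 higher, 3697 lower), with 5883 called untreated (2719 higher, 3164 lower) and 4342 changes (1865 downwards). Among genes with under 10% shared exonic bases, an alternative added after seeing the data, 9728 were called, and with at least 10 counts in each species, also added, 11637. Scaling to library totals left 3339 untreated calls higher in spiny mouse and gave 5960 upward and 1505 downward changes. Without division by length 9917 of the 12005 treated calls were called again, and 866 of those had the other sign. For the untreated difference 7363 of the 10045 calls were called again, 474 of them with the other sign. The turned signs listed further on are only those of genes named in the text. With the replicate block 12033 genes were called in treated skin, 11832 of them shared with the fit without it, 9503 untreated and 6232 for the change. Same-numbered samples of treated and untreated spiny mouse skin correlated at -0.552 to -0.212, so the numbers do not pair them. Leaving out 1 sample gave 11682 to 11985 treated calls, 9372 to 11392 untreated calls and 5994 to 7827 changes, the highest of the last 2 without untreated mouse replicate 2.

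Signs turned without division by length for the treated difference of Ereg (0.29), Hbegf (-0.69), Il18 (0.61), Krt10 (0.83), Nqo1 (0.25), Polr2a (0.17), Postn (-0.098) and Top2a (-0.25), and for the untreated difference of Atr (-0.69), Ccnb1 (-0.021), Hbegf (-0.011), Jund (0.75) and Spry4 (0.38). With 1 sample left out the untreated difference of Alb ran from -2.24 to 3.46 and that of Apob from -2.19 to 1.82, both highest without untreated mouse replicate 1, and that of Tgm6 reached 5.21 without replicate 2. The change of Trp53 became 0.0037 with library totals and that of Tnnc2 -0.77 with limma. The causes of these turns were not tested.

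Precision is limited by gene length, by annotation and, for low genes, by depth. Genes named with 0 counts in a group have bounds only, and levels well under 1 rest on few counts.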
